A study of Mus musculus with 20 samples.

Results

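The genes described here are 80 genes of mouse intestine whose expression changed after induction of BRAFV600E and did not move back when MEK, the kinase directly downstream of BRAF, was inhibited. They were selected on the measured values, from 23085 genes that passed a detection filter among 37074 gene names on the array. A first condition kept the 911 genes whose mean log2 signal differed between BRAFV600E and Cre control by at least 0.8 with no overlap between the arrays of the 2 groups. A second condition kept those whose mean in MEKi minus the mean in Vehicle had the same sign as the BRAFV600E difference, or was under 0.15 in size. The 80 genes that met both made up 8.78% of the 911, and the other 831 genes (91.2%) moved the opposite way under MEKi by 0.15 or more. Of the 80, 31 were higher in BRAFV600E (6.43% of the 482 genes that were higher) and 49 were lower (11.4% of the 429 genes that were lower). Because both differences chose the genes, they are given as descriptions, without tests.

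RNA of C57BL6/j mouse intestinal tissue was hybridised to 20 Agilent 1-colour arrays in 4 groups. The 6 Cre control arrays came from mice with the tamoxifen-activated VillinCreER/0 recombinase only, and the 6 BRAFV600E arrays from young adult VillinCreER/0/Braf V600E-LSL/+ mice, all given tamoxifen and sampled within days. The 4 MEKi and the 4 Vehicle arrays formed a separate experiment, in which mice received tamoxifen and then daily injections of the MEK inhibitor PD184352 or of its solvent (DMSO and Cremophor EL). The labels give neither age nor genotype for MEKi and Vehicle, which the study describes as carrying the induced allele, so both groups would hold the mutation. The villin promoter restricts the recombinase to gut epithelium, whereas the RNA came from tissue that also holds immune, stromal, muscle and nerve cells. In such bulk tissue, fewer cells of a type and less RNA per cell cannot be told apart.

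BRAF is a kinase that phosphorylates MEK, which in turn phosphorylates ERK. The V600E form signals without an upstream cue, and much of its transcriptional output, including feedback phosphatases and immediate early genes, depends on continued MEK activity. PD184352 binds MEK outside its ATP site, and genes induced by ERK usually fall once such an inhibitor is given.

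Levels are given as log2 signal relative to the 75th percentile of the same array, so a level of 0 equals that percentile and a difference of 1 is a doubling. The gut markers Vil1, Fabp2, Alpi, Muc2, Epcam and Cdx2 were well above background on all 20 arrays. Between 60.8% and 76.8% of the 59305 gene spots on an array were well above background, and no spot was saturated. Slide 1 held all Cre control arrays together with BRAFV600E replicates 1 and 2. BRAFV600E replicates 3 to 6 were on slide 2, and slide 3 held MEKi and Vehicle in separate rows, so row and treatment cannot be told apart there. Y-linked signal was high on all 4 MEKi arrays but only on Vehicle replicates 1 and 3, so these groups also differed in sex composition. Since the selection required no overlap over all arrays, the direction was necessarily the same on slides 1 and 2. The difference from Cre control was smaller for the slide 2 arrays than for those of slide 1 in 48 genes (34 of the lower and 14 of the higher). Within BRAFV600E, limma called 0 of 23085 genes between the slides (0%; 4670 genes at unadjusted p under 0.05, 11 of them among the 80). The selection did not use this difference itself, but its no-overlap condition limits how BRAFV600E arrays can differ in the 80. With replicates 1 and 2 set against 3 to 6, the 0 calls do not show that the slides were alike.

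Probes of the unreversed genes were dim next to those of the reversed genes, which describes probe signals and not transcript amounts. The median signal over all arrays was −1.17, against 0.22 for the 831 genes that moved back and −0.56 for all genes tested. Of the 80, 69 were well above background on all 20 arrays. Their median BRAFV600E difference was 1.02 in size, against 1.19 for the 831. The median MEKi difference was 0.12 in size, against 0.70 for the 831 and 0.20 for all genes, while the median standard error of a MEKi difference among the 80 was 0.27. An additional probe was detected for 20 of the 80, 27 probes in all, and 24 of these probes pointed the same way in BRAFV600E. Under MEKi these probes went both ways, so they do not bear out the unreversed state of every gene. Second probes of Tmprss5, Galnt15, Ninl and Ska3 moved back, by 0.78, 0.40, 0.37 and −0.53. Probes of St3gal1, Ccrn4l, Fggy, Cd300ld, Clec4b1, Reg3d and Pdk1 also moved back by 0.15 or more. For St3gal1 and Pdk1 further probes did not. The second probes of Gstm1 and Rbpjl moved in the direction of BRAFV600E, by −0.73 and −0.90. Probes of Lima1, Cdca2, Sc5d and Immt did so as well.

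Within the set, 44 genes moved under MEKi in the direction of BRAFV600E (13 higher and 31 lower), and 25 of them did so by 0.15 or more (6 higher and 19 lower). The remaining 36, 18 on each side, moved back by less than 0.15. In the fit across all genes, limma with Benjamini-Hochberg adjustment called 13.6% of all 23085 genes between BRAFV600E and Cre control and 72 of the 80 (the others were Aurka, Immt, Pik3c3, Tsta3 and 4 unnamed loci), and 7.78% of all genes did not overlap between these groups, as all 80 had to. Between MEKi and Vehicle, limma called 1.59% of all genes and 0 of the 80, and none of the 80 reached an unadjusted p under 0.05. Of all genes, 11.5% did not overlap between MEKi and Vehicle, and 0 of the 80 did so. Since the selection used both contrasts, these counts follow from it and carry no further information on the genes. Over the higher genes the median of the group means was −1.24 in Cre control, −0.40 in BRAFV600E, −0.03 in Vehicle and −0.17 in MEKi, and over the lower genes −0.77, −1.91, −1.64 and −1.67. Cre control and BRAFV600E on the one hand and Vehicle and MEKi on the other were run on different slides, so levels are set side by side only.

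**Figure D1:**
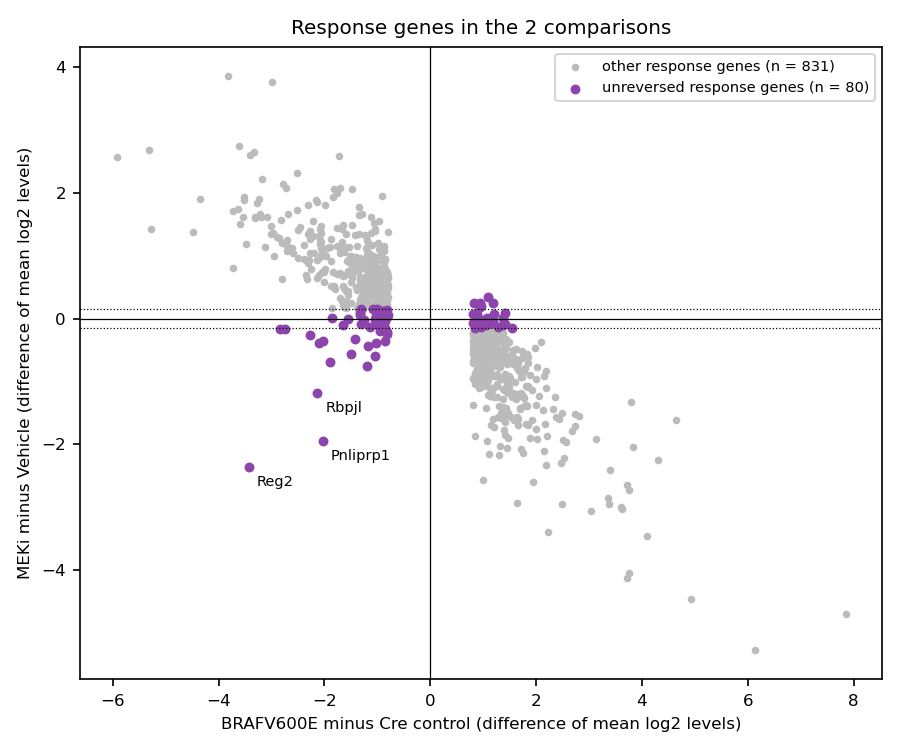
Difference MEKi minus Vehicle (vertical axis, log2) against the difference BRAFV600E minus Cre control (horizontal axis, log2) for the 911 response genes, with the 80 unreversed genes in colour and the 831 reversed genes in grey. Most points lie in the quadrants of opposite sign, and the 80 lie nearer to the horizontal zero line or past it, with Reg2, Pnliprp1, Rbpjl, Reg3d and Rnase1 farthest past it at −2.36, −1.95, −1.18, −0.75 and −0.68.

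Just inside the limit of 0.8 lay Ncf4 with a BRAFV600E difference of −0.805 and Lima1 with 0.812, and just outside it Pdcd1lg2 with −0.797 and Gramd4 with 0.788. Just inside the limit of 0.15 lay Krt31 with a MEKi difference of 0.1496 and Slc16a12 with −0.1497, and just outside it R3hdml with −0.154 and Dbf4 with −0.156.

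Of the 80, 63 carry a gene name and 17 are clones, gene models or unnamed loci. Among RefSeq entries, 73 were found, 65 of them protein coding and 6 long noncoding RNAs. Promoters are shown for the named genes with a sequence entry in which the smaller of the 2 differences, taken with the same sign, was largest, Shisa2 and Nek2 among the higher and Reg2 and Pnliprp1 among the lower. Fam64a would have preceded Nek2 but had no entry. Reg2 and Pnliprp1 have the same sign only with Vehicle replicate 2, without which their MEKi differences were 1.13 and 0.81. Aurka was added after its values were seen, as the best known mitotic kinase of the set. Each run is the 300 bases from 250 before to 50 after the RefSeq start (GRCm38.p6), written along the gene's strand, with matches to the searched motifs in capitals. Shisa2 lies at chr14:59625031-59625330 (+), Nek2 at chr1:191821223-191821522 (+), Reg2 at chr6:78404905-78405204 (+), Pnliprp1 at chr19:58728637-58728936 (+) and Aurka at chr2:172370521-172370820 (−).
Shisa2: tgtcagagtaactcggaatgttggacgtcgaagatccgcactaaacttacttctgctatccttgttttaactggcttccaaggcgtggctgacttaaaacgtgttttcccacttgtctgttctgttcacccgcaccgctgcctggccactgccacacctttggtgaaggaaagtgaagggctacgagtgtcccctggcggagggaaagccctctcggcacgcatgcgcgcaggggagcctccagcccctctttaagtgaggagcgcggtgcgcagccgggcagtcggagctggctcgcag
Nek2: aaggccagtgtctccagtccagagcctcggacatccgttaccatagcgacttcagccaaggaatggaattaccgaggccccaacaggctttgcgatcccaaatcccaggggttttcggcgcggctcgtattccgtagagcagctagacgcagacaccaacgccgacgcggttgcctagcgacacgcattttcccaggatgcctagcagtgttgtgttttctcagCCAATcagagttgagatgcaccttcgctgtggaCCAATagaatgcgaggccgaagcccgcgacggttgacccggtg
Aurka: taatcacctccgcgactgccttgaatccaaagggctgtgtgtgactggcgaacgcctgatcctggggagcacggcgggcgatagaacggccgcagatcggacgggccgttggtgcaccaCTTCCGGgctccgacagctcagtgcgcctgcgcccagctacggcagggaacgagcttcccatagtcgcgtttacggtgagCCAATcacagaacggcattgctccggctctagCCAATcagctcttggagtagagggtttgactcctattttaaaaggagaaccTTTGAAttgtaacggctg
Reg2: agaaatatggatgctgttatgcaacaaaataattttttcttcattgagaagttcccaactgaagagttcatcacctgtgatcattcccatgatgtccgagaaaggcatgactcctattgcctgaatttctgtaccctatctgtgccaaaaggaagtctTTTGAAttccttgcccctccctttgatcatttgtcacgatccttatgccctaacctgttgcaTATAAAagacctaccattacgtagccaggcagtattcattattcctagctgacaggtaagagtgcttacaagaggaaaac
Pnliprp1: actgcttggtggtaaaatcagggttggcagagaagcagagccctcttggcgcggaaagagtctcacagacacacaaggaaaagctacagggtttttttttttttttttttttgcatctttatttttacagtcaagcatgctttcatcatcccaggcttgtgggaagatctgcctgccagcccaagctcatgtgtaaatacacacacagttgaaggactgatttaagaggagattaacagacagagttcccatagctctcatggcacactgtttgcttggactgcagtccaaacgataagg

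The Aurka promoter held an ETS match at −131 relative to the start on the opposite strand, CCAAT boxes at −51 and −19, and a CHR match at 33. Nek2 had CCAAT boxes at −26 and 8. Reg2 had a TATA box at −30 and a CHR match at −92. No searched motif was found in the Shisa2 and Pnliprp1 windows. Motifs were searched on both strands in 27025 mouse promoters of the same length, 58 of which belonged to the 80 genes (22 higher and 36 lower), and none of the matches printed here overlapped another. The ETS core CCGGAAG was in 9.12% of all promoters and in 8 of the 58 (13.8%), namely in 6 of the 22 higher and 2 of the 36 lower genes. AP-1 (TGACTCA) was in 5.17% of all and 3 of the 58, and the CRE (TGACGTCA) in 1.88% and 1 of the 58. The E-box (CACGTG) was in 7.24% of all and 4 of the 58, the CCAAT box (CCAAT) in 37.9% and 21, and the TATA box (TATAAA) in 14.2% and 9. The CHR element TTTGAA, known from cell cycle genes, was in 18.1% of all and 17 of the 58, namely in 6 of the 22 higher and 11 of the 36 lower genes. The HNF4 sequence CAAAGTCCA was in 0.477% of all and 2 of the 58. These are matches of letters and no evidence of binding.

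Of the 40 named genes that were lower in BRAFV600E, 7 encode enzymes of xenobiotic metabolism, of the Cyp3a, Ces1, Aldh1a and Gstm families. Cyp3a enzymes oxidise drugs, steroids and bile acids in gut and liver. Cyp3a41a (probe at chr5:146505792-146505851, mm9) ranged from 5.60 to 7.04 with a median of 6.24 in Cre control, and from 2.55 to 4.79 with a median of 4.18 in BRAFV600E. In Vehicle its levels were 4.28, 6.29, 5.38 and 4.92, and in MEKi 4.59, 5.55, 3.97 and 5.71. Every BRAFV600E array was thus under every Cre control array, while MEKi and Vehicle overlapped across most of their range. Its BRAFV600E difference was −2.26 ± 0.34 (SE, n = 6 and 6), a 4.81-fold lower signal, and its MEKi difference −0.26 ± 0.51 (SE, n = 4 and 4), or 0.09 without Vehicle replicate 2.

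Cyp3a16 (chr5:146197274-146197333, mm9) ranged from 3.16 to 4.50 (median 4.02) in Cre control and from 0.42 to 2.72 (median 2.04) in BRAFV600E. Its levels were 1.73, 4.09, 2.57 and 2.56 in Vehicle and 1.91, 2.99, 1.43 and 3.09 in MEKi. Vehicle replicate 2 was as high as the Cre control arrays. MEKi replicates 2 and 4 lay just under the Cre control range, and the remaining arrays of this experiment were within the BRAFV600E range. The differences were −2.11 ± 0.34 in BRAFV600E and −0.38 ± 0.55 under MEKi, or 0.07 without Vehicle replicate 2. Cyp3a59 (chr5:146920638-146920697, mm9) ranged from 2.71 to 4.14 (median 3.23) in Cre control and from 0.78 to 2.53 (median 1.88) in BRAFV600E, with Vehicle at 2.15, 3.29, 2.16 and 2.78 and MEKi at 2.02, 2.91, 2.16 and 2.88. Here Vehicle and MEKi lay between the other groups, and its differences were −1.64 ± 0.33 and −0.10 ± 0.32.

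Of 8 Cyp3a genes tested, 7 were lower in BRAFV600E and limma called all 7, against 1477 of 23085 genes called lower overall. The set holds 3 of the 7. Cyp3a11 differed by −1.65 ± 0.42 and −0.20 ± 0.51, but its BRAFV600E arrays overlapped Cre control. Cyp3a25, Cyp3a44 and Cyp3a57 had MEKi differences of 0.44 ± 0.25, 0.96 ± 0.55 and 0.55 ± 0.25. Cyp3a genes are near-identical neighbours on chromosome 5, so their probes can take up signal from each other and the values of single members are uncertain. Over the 68 cytochrome P450 genes tested, 20 were called lower and 2 higher in BRAFV600E, with a median difference of −0.26 against −0.02 for all genes, and 0 were called lower and 2 higher under MEKi. Cyp2s1, an epithelial P450, was higher. It ranged from 3.10 to 4.11 in Cre control (median 3.77) and from 4.18 to 5.11 in BRAFV600E (median 4.55), and was 4.69, 5.17, 4.37 and 4.46 in Vehicle and 4.60, 4.49, 4.25 and 4.79 in MEKi. All arrays that carried the mutation by the study's account were above all Cre control arrays, with differences of 0.87 ± 0.21 in BRAFV600E and −0.14 ± 0.21 under MEKi.

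Carboxylesterases, aldehyde dehydrogenases and glutathione transferases were represented by 4 genes. Ces1g, a carboxylesterase that hydrolyses ester drugs and lipids (chr8:95826722-95826781, mm9), ranged from −2.50 to −0.75 (median −2.24) in Cre control and from −4.65 to −3.07 (median −4.15) in BRAFV600E. Its Vehicle levels were −2.99, −3.69, −3.78 and −2.79 and its MEKi levels −3.86, −4.08, −3.92 and −2.79. All 8 arrays of the inhibitor experiment were under the whole Cre control range. The differences were −2.03 ± 0.33 and −0.35 ± 0.34. All 6 Ces1 genes tested were lower in BRAFV600E, 4 of them called, whereas under MEKi 3 were higher and 3 lower with 0 called (limma). Of 6 Ces2 genes, none of them in the set, 3 were higher and 3 lower in BRAFV600E and all 6 were lower under MEKi, with 0 called in either (limma).

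Aldh1a7, which oxidises aldehydes and is closely related to the retinal dehydrogenase Aldh1a1, ranged from 1.42 to 2.33 (median 2.01) in Cre control and from −1.28 to 1.40 (median 0.21) in BRAFV600E. It stood at 1.27, 0.54, 1.65 and 1.44 in Vehicle and at 1.12, 1.60, 0.34 and 1.85 in MEKi. BRAFV600E arrays differed widely among themselves (SD 1.18), and the highest nearly touched the lowest control. The differences were −1.85 ± 0.45 and 0.00 ± 0.36, while Aldh1a1 differed by −2.79 ± 0.46 in BRAFV600E and by 0.63 ± 0.51 under MEKi.

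Gstm3 and Gstm1 encode mu-class glutathione transferases, which couple glutathione to reactive compounds. Gstm3 (chr3:107766730-107766789, mm9) ranged from 6.70 to 7.55 (median 7.01) in Cre control and from 5.25 to 6.04 (median 5.78) in BRAFV600E. Its levels were 5.68, 6.31, 5.96 and 6.26 in Vehicle and 5.58, 6.47, 5.21 and 6.58 in MEKi. No mutant or inhibitor-experiment array reached the lowest Cre control array, and the differences were −1.31 ± 0.19 and −0.09 ± 0.33. Gstm1 ranged from 4.57 to 5.69 (median 4.93) and from 3.68 to 4.31 (median 4.09), and was 3.71, 4.35, 3.90 and 4.23 in Vehicle and 3.31, 4.04, 2.96 and 4.37 in MEKi. Again the groups of the first experiment were apart and MEKi spanned the Vehicle values, with differences of −1.02 ± 0.20 and −0.38 ± 0.32. The array annotation places the Gstm1 probe on chromosome 5 while RefSeq places the gene on chromosome 3, so the identity of this signal is uncertain. Of 7 Gstm genes, 5 were lower in BRAFV600E (3 called) and all 7 were lower under MEKi (0 called). Over 42 tested conjugating transferases, which include the Gstm genes, 5 were called higher and 6 lower in BRAFV600E, with a median difference of 0.00.

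**Figure D2:**
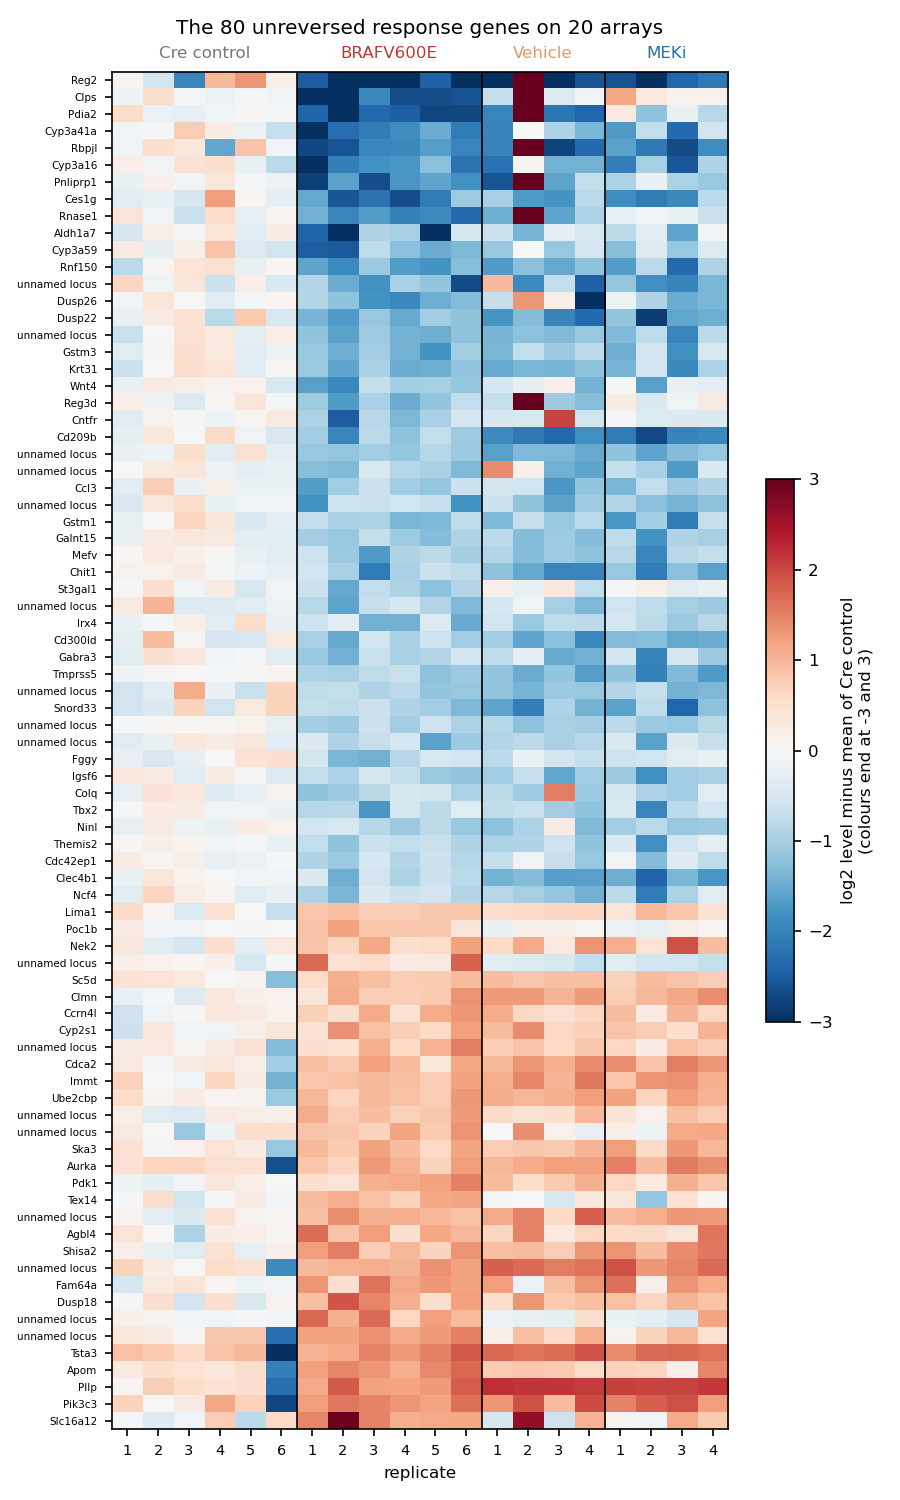
Level of the 80 unreversed genes on each of the 20 arrays, as log2 signal minus the mean of the Cre control arrays for that gene, with genes in order of their BRAFV600E difference arrays grouped as Cre control, BRAFV600E, Vehicle and MEKi, and colours that end at 3 on either side. The columns of Vehicle replicate 2 and Cre control replicate 6 stand out from their groups at several genes.

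The largest falls belonged to genes known from the exocrine pancreas and the Reg family, and in these 1 Vehicle array set the MEKi difference. Reg2, a secreted C-type lectin (chr6:78357959-78358018, mm9), ranged from −4.18 to −0.87 (median −2.07) in Cre control and from −6.47 to −4.62 (median −5.76) in BRAFV600E. It was −6.06, 8.05, −6.83 and −4.79 in Vehicle and −4.81, −5.35, −4.57 and −4.35 in MEKi. Vehicle replicate 2 exceeded every other array, and the other Vehicle arrays were on average under MEKi. The BRAFV600E difference was −3.43 ± 0.52, a 10.8-fold lower signal, and the MEKi difference was −2.36 ± 2.99 with all arrays and 1.13 without Vehicle replicate 2. Reg2 was well above background on all 6 Cre control arrays but on 1 of 6 BRAFV600E, 2 of 4 Vehicle and 3 of 4 MEKi arrays, so its low levels lie near the detection limit.

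Clps, the colipase that pancreatic lipase needs as a cofactor (chr17:28695162-28695221, mm9), ranged from 4.35 to 5.06 (median 4.46) in Cre control and from 0.92 to 2.61 (median 1.87) in BRAFV600E. Vehicle gave 3.79, 8.15, 4.11 and 4.40, and MEKi 5.70, 4.83, 4.63 and 4.66. Apart from Vehicle replicate 2, every Vehicle array was under every MEKi array. Its differences were −2.85 ± 0.27 in BRAFV600E and −0.16 ± 0.90 under MEKi, and the latter became 0.85 without that array. Pdia2, a pancreatic protein disulfide isomerase, went from between −0.19 and 0.59 (median −0.03) in Cre control to between −3.73 and −2.31 (median −2.54) in BRAFV600E. It was −1.94, 5.25, −2.11 and −2.33 in Vehicle and 0.34, −1.17, −0.18 and −0.78 in MEKi, so that the same array alone was above MEKi. The MEKi difference was −0.16 ± 1.60 with it and 1.68 without it, and the BRAFV600E difference −2.74 ± 0.24.

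The same array was the high one for 4 more genes. Rbpjl, a transcription factor of acinar cells, was −3.90, 1.62, −4.69 and −4.24 in Vehicle and −3.52, −4.05, −4.60 and −3.77 in MEKi, after ranges of −3.46 to −1.05 in Cre control (median −1.78) and −4.65 to −3.56 in BRAFV600E (median −3.87). Pnliprp1, a lipase-related secreted protein, was −5.36, 6.63, −4.36 and −3.49 in Vehicle and −3.73, −2.99, −3.73 and −3.91 in MEKi, after −3.00 to −2.44 (median −2.83) and −5.59 to −4.35 (median −4.56). For Rbpjl the 3 other Vehicle arrays lay within or just under the BRAFV600E range, and for Pnliprp1 they spread from there to the MEKi levels. Rnase1, a secreted ribonuclease, was −2.32, 4.63, −2.43 and −1.77 in Vehicle and −1.10, −0.97, −1.04 and −1.52 in MEKi, after −1.52 to −0.29 (median −0.86) and −3.19 to −2.30 (median −2.80). Reg3d, a Reg family lectin, was −1.72, 4.93, −2.13 and −2.33 in Vehicle and −0.82, −1.50, −1.16 and −0.77 in MEKi, after −1.45 to −0.68 (median −1.05) and −2.75 to −1.78 (median −2.16). For Rnase1 and Reg3d every MEKi array was above the 3 other Vehicle arrays. The BRAFV600E differences of Rbpjl, Pnliprp1, Rnase1 and Reg3d were −2.14 ± 0.35, −2.03 ± 0.23, −1.90 ± 0.21 and −1.19 ± 0.18. Pnliprp1 was well above background on 3 of 6 BRAFV600E arrays only, so its low levels also lie near the detection limit. The MEKi differences of the 4 genes, −1.18 ± 1.28, −1.95 ± 2.38, −0.68 ± 1.46 and −0.75 ± 1.50, became 0.29, 0.81, 1.02 and 1.00 without Vehicle replicate 2, and all 7 genes then left the set.

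The same array stood apart in exocrine pancreas genes outside the set. The summed linear signal of 6 such genes, relative to the 75th percentile, was 3.46 to 6.16 in Cre control, 5.62 to 8.94 in BRAFV600E and 3.78 to 4.62 in MEKi. It was 5.23, 6.28 and 5.58 in Vehicle replicates 1, 3 and 4 and 1992 in Vehicle replicate 2. In the BRAFV600E comparison this sum was not lower in the mutant group, although Clps, Pdia2, Rbpjl, Pnliprp1, Rnase1, Reg2 and Reg3d were. Whether pancreatic tissue was present in that sample was not tested. Among the 7 Reg genes tested, all 7 were lower in BRAFV600E (6 called), and under MEKi Reg3b and Reg3g differed by 2.02 ± 0.58 and 1.96 ± 0.43, without being called.

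**Figure D3:**
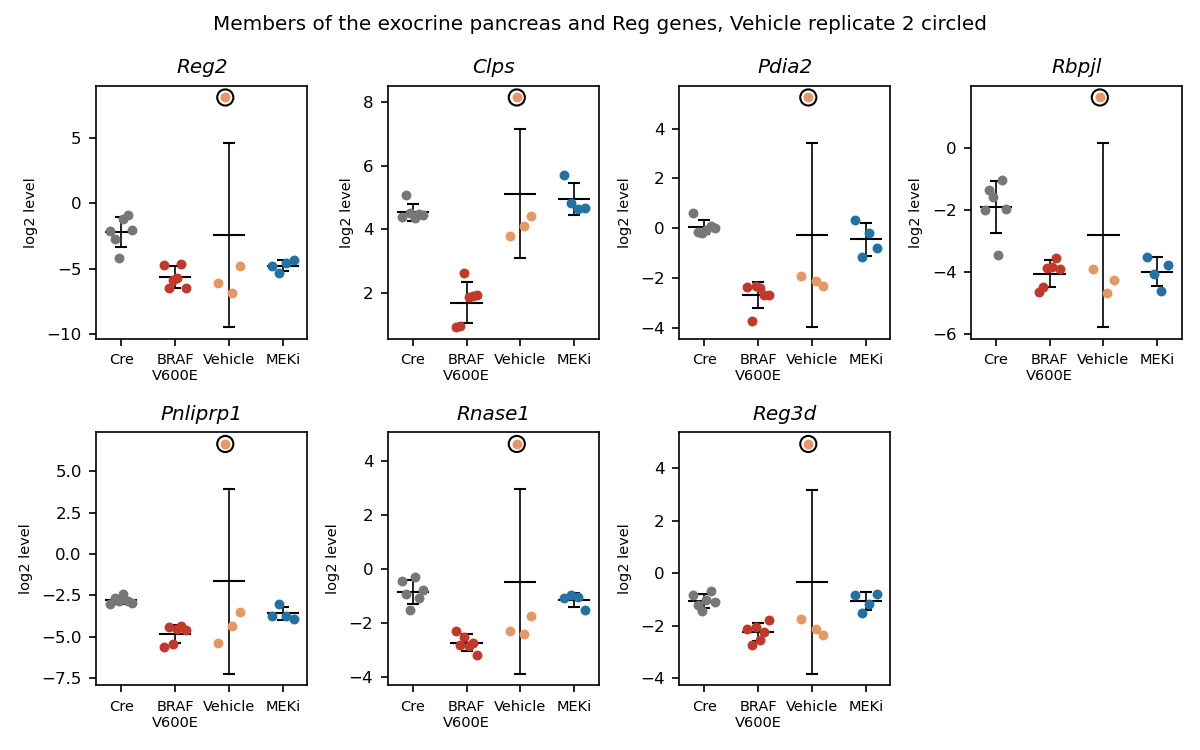
Levels (log2 signal relative to the 75th percentile of the array) of the 7 unreversed genes known from the exocrine pancreas or the Reg family, 1 point per array in each of the 4 groups with the mean and SD, and with Vehicle replicate 2 circled. Vehicle replicate 2 lies at 8.05 for Reg2 and at 1.62 for Rbpjl, above all other Vehicle arrays, while the remaining Vehicle points lie close to or under the MEKi points.

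Of the 23 named genes that were higher in BRAFV600E, 5 act in mitosis, Nek2, Fam64a, Aurka, Ska3 and Cdca2, a grouping made after the values were seen. Their MEKi differences lay between 0.08 and 0.25, a sign that the selection favoured. Nek2, a kinase that splits the centrosomes (chr1:193656343-193656402, mm9), ranged from −2.13 to −1.12 (median −1.60) in Cre control and from −1.10 to −0.40 (median −0.86) in BRAFV600E. It was −1.03, −0.47, −1.32 and −0.27 in Vehicle and −0.53, −1.20, 0.29 and −0.69 in MEKi. The first 2 groups met without overlapping, and MEKi and Vehicle were intermingled at the BRAFV600E level. Its differences were 0.83 ± 0.21 and 0.24 ± 0.35, and the latter was −0.03 without MEKi replicate 3.

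Fam64a (current symbol Pimreg), a regulator of the metaphase to anaphase transition (chr11:71860737-71860794, mm9), ranged from −2.92 to −2.03 (median −2.43) and from −1.90 to −0.79 (median −1.17) in the same groups. Its Vehicle levels were −1.16, −2.59, −1.52 and −1.10, and its MEKi levels −0.76, −2.25, −1.06 and −1.30. Vehicle replicate 2 and MEKi replicate 2 were as low as Cre control, and the other 6 arrays were as high as BRAFV600E. The differences were 1.18 ± 0.20 and 0.25 ± 0.41, and the latter was −0.08 without Vehicle replicate 2.

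Aurka, the kinase that matures the centrosomes and builds the spindle poles (chr2:172181734-172181793, mm9), ranged from −1.30 to 1.98 (median 1.79) in Cre control and from 1.99 to 2.62 (median 2.27) in BRAFV600E. It was 2.34, 2.45, 2.57 and 2.58 in Vehicle and 2.86, 2.25, 2.90 and 2.73 in MEKi. Cre control replicate 6 was the array at −1.30, and the other controls ended just under the lowest BRAFV600E array. The BRAFV600E difference was 0.95 ± 0.48 with that array and 0.43 without it, and the MEKi difference was 0.20 ± 0.17.

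Ska3, a kinetochore protein, ranged from −3.04 to −1.45 (median −1.72) in Cre control and from −1.30 to −0.69 (median −0.95) in BRAFV600E, with Vehicle at −1.14, −1.09, −1.12 and −0.89 and MEKi at −0.64, −1.33, −0.60 and −0.91. Cdca2, which recruits a phosphatase to chromatin at mitotic exit, ranged from −3.04 to −1.69 (median −1.81) and from −1.69 to −0.80 (median −1.10), with Vehicle at −1.05, −0.69, −0.97 and −0.60 and MEKi at −0.64, −1.16, −0.49 and −0.71. In both, Cre control replicate 6 was the lowest control and the inhibitor experiment lay around the BRAFV600E level. Their differences were 0.95 ± 0.25 and 0.19 ± 0.18 for Ska3 and 0.89 ± 0.24 and 0.08 ± 0.18 for Cdca2, and without Cre control replicate 6 the BRAFV600E differences were 0.72 and 0.69, under the threshold.

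A wider list of 25 G2/M and mitosis genes has Aurka as its member of the set. Only 1 of the 25, Aurka, met the first condition, so no other could be in the set. All 25 were higher in BRAFV600E, 10 of them called by limma, with a median difference of 0.55 against −0.02 for all genes (0.61 without Cre control replicate 6). Under MEKi 19 were higher and 6 lower with 0 called, and the median was 0.14 against 0.02 for all genes. Of 21 tested E2F targets of DNA replication, which act earlier in the cycle, 16 were higher in BRAFV600E (1 called, median 0.34) and 19 lower under MEKi (1 called, median −0.31). Since 0 of the 21 met the first condition, none could be in the set.

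**Figure D4:**
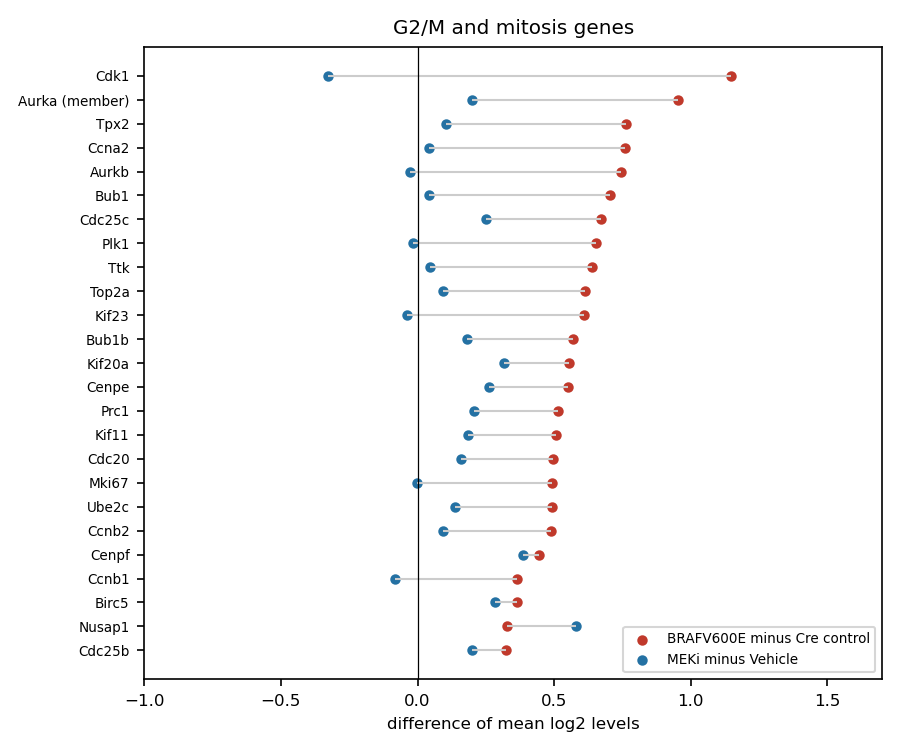
Differences of mean log2 level (horizontal axis) for BRAFV600E minus Cre control (red) and MEKi minus Vehicle (blue) of the 25 G2/M and mitosis genes, 1 line of the plot per gene, with Aurka marked as unreversed. All 25 red points are above 0, and the blue points of 19 of the 25 genes are above 0.

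Cd209b, Clec4b1, Themis2, Ncf4, Mefv, Igsf6, Cd300ld, Ccl3 and Chit1, all lower in BRAFV600E, are known from macrophages and other myeloid cells, a grouping made after the values were seen. Cd209b, a C-type lectin receptor of macrophages (chr8:3918527-3918586, mm9), ranged from −1.26 to −0.17 (median −0.83) in Cre control and from −2.74 to −1.51 (median −1.82) in BRAFV600E. It was −2.66, −2.92, −3.13 and −2.61 in Vehicle and −2.89, −3.46, −2.77 and −2.71 in MEKi. All arrays of the inhibitor experiment were at the low end of the BRAFV600E range or under it, and the differences were −1.15 ± 0.23 and −0.13 ± 0.20. Clec4b1, a lectin receptor of dendritic cells, ranged from −0.06 to 0.48 (median 0.09) and from −1.32 to −0.30 (median −0.58), with Vehicle at −1.28, −1.17, −1.50 and −1.49 and MEKi at −1.33, −2.26, −1.23 and −1.60. MEKi replicate 2 was its lowest array, and its differences were −0.81 ± 0.17 and −0.25 ± 0.23.

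Themis2, a signalling adaptor of B cells and macrophages, ranged from 0.85 to 1.24 (median 1.05) in Cre control and from −0.17 to 0.39 (median 0.31) in BRAFV600E. It was 0.11, 0.14, 0.42 and −0.16 in Vehicle and 0.62, −0.80, 0.48 and 0.77 in MEKi. Ncf4, a subunit of the phagocyte NADPH oxidase, ranged from 0.95 to 1.96 (median 1.24) and from −0.07 to 0.88 (median 0.54), and was 0.47, 0.31, 0.16 and −0.14 in Vehicle and 0.51, −0.80, 0.36 and 0.96 in MEKi. In both genes MEKi replicate 2 was the lowest array, and the other 3 MEKi arrays lay above most of Vehicle. Without MEKi replicate 2 the MEKi differences of Themis2 and Ncf4 were 0.50 and 0.41, and both genes left the set. Their differences were −0.82 ± 0.13 and 0.14 ± 0.34 for Themis2 and −0.80 ± 0.21 and 0.06 ± 0.35 for Ncf4. Mefv (pyrin, an inflammasome sensor) differed by −1.02 ± 0.18 and 0.04 ± 0.28, and MEKi replicate 2 was again its lowest array at −2.49. Without that array the MEKi difference of Mefv was 0.33, and it left the set. Igsf6, an immunoglobulin-like receptor of myeloid cells, differed by −0.86 ± 0.17 and −0.14 ± 0.25, with MEKi replicate 2 lowest at −2.65. Cd300ld, a myeloid receptor of the CD300 family, differed by −0.95 ± 0.25 and 0.05 ± 0.20. The chemokine Ccl3 differed by −1.03 ± 0.22 and −0.00 ± 0.28, and the macrophage chitinase Chit1 by −1.01 ± 0.24 and 0.15 ± 0.26.

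A separate list of 13 tested myeloid markers, none of them in the set, had a median difference of −0.55 in BRAFV600E (1 higher, 4 called lower) and 0.01 under MEKi (7 higher, 0 called). The summed linear signal of these markers was 243 to 386 in Cre control, 89.5 to 231 in BRAFV600E, 153 to 252 in Vehicle and 273 to 393 in MEKi. On this sum every MEKi array was above every Vehicle array, although the median difference of the single markers was near 0. The part of myeloid cell number in the BRAFV600E differences was not tested.

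Regulators of development were also among the lower genes. Wnt4, a Wnt ligand, ranged from 0.43 to 1.14 (median 1.03) in Cre control and from −1.03 to 0.19 (median −0.20) in BRAFV600E, and was 0.39, 0.62, 1.04 and −0.51 in Vehicle and 0.88, −0.72, 0.68 and 0.63 in MEKi. Vehicle and MEKi each had 1 array at the BRAFV600E level and 3 nearer to the controls. Its differences were −1.24 ± 0.21 and −0.02 ± 0.43, and the latter was 0.35 without MEKi replicate 2. Tbx2, a T-box repressor of transcription, ranged from −0.13 to 0.34 (median −0.00) and from −1.66 to −0.28 (median −0.73), with Vehicle at −0.67, −0.59, −0.96 and −1.12 and MEKi at −0.40, −1.90, −0.70 and −0.49. Every array of the inhibitor experiment was under every control, and the differences were −0.85 ± 0.21 and −0.04 ± 0.33, the latter 0.31 without MEKi replicate 2. The homeobox gene Irx4 differed by −0.96 ± 0.25 and 0.00 ± 0.17, and Rnf150, which encodes a RING finger protein, by −1.55 ± 0.22 and −0.01 ± 0.33. Wnt4, Tbx2, Irx4 and Rnf150 were chosen for description after their values were seen.

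Shisa2 encodes a membrane protein that holds back maturation of FGF and Wnt receptors, and among the named higher genes it had the largest MEKi difference. It ranged from −2.67 to −1.85 (median −2.33) in Cre control and from −1.64 to −0.77 (median −1.17) in BRAFV600E (chr14:60250369-60250428, mm9). Vehicle gave −1.41, −1.37, −1.56 and −0.98, and MEKi −0.95, −1.38, −0.89 and −0.73. All 14 arrays of the mutant groups were above all 6 controls. The differences were 1.09 ± 0.19 and 0.34 ± 0.19.

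Pik3c3, the class III lipid kinase of autophagy and endosomes, ranged from −5.29 to −1.39 (median −2.10) in Cre control and from −1.38 to −0.90 (median −1.15) in BRAFV600E, with Vehicle at −1.26, −0.65, −1.59 and −0.60 and MEKi at −1.07, −0.76, −0.63 and −1.29. Pllp, a myelin-type proteolipid also made in epithelia, ranged from −2.91 to 0.09 (median −0.19) and from 0.49 to 1.19 (median 0.59), with Vehicle at 1.56, 1.49, 1.49 and 1.44 and MEKi at 1.40, 1.39, 1.37 and 1.48. Cre control replicate 6 was far under the other controls for both, and the inhibitor experiment was tight and high for Pllp. Their BRAFV600E differences were 1.41 ± 0.52 and 1.41 ± 0.43, or 0.86 and 0.96 without that control, and their MEKi differences 0.09 ± 0.26 and −0.09 ± 0.10. Tsta3 (current symbol Gfus), which makes GDP-fucose, rested on the same array, with a BRAFV600E difference of 1.38 ± 0.73 that became 0.57 without it.

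Sc5d, a late enzyme of cholesterol synthesis, ranged from 1.49 to 3.20 (median 2.97) in Cre control and from 3.32 to 3.83 (median 3.61) in BRAFV600E, and was 3.70, 3.58, 3.67 and 3.67 in Vehicle and 3.46, 3.70, 3.61 and 3.49 in MEKi. The low control was replicate 6, and Vehicle and MEKi kept to a narrow band at the BRAFV600E level. Its differences were 0.84 ± 0.26, or 0.59 without that control, and −0.09 ± 0.11. All 19 tested enzymes of cholesterol synthesis were higher in BRAFV600E (15 called, median 0.94) and all 19 were lower under MEKi (5 called, median −0.91). Of the 11 enzymes that met the first condition, Sc5d was the only one in the set. A different Sc5d probe gave 0.21 in BRAFV600E and 0.26 under MEKi, so the probes disagreed. Pdk1, a kinase that shuts down pyruvate oxidation, differed by 0.96 ± 0.20 and −0.14 ± 0.20, and of the 13 tested hypoxia genes to which it belongs 6 were called higher and 1 lower in BRAFV600E and 0 higher and 1 lower under MEKi. Slc16a12, a creatine transporter, had the largest rise of the set at 1.54 ± 0.34 but varied in Vehicle (−3.23, −0.08, −3.35 and −1.67), giving a MEKi difference of −0.15 ± 0.70.

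Of 22 direct outputs of the MAPK pathway tested, 13 were called higher and 1 lower in BRAFV600E, and 7 were called lower under MEKi. Over all 23085 genes, 1674 were called higher and 1477 lower in BRAFV600E, and 172 lower under MEKi. Only 6 of the 22 met the first condition, and 0 were in the set. Of all genes that met that condition 8.78% were in the set, so an absence among 6 says little. Dusp4 and Dusp6, which dephosphorylate ERK, differed by 1.65 ± 0.19 and 0.72 ± 0.13 in BRAFV600E and by −1.70 ± 0.23 and −1.50 ± 0.30 under MEKi. Dusp18, Dusp22 and Dusp26, atypical members of the family, were unreversed. Dusp18 ranged from −4.57 to −3.49 (median −3.96) in Cre control and from −3.47 to −2.10 (median −2.83) in BRAFV600E, with differences of 1.18 ± 0.25 and −0.04 ± 0.19. Dusp22 fell by 1.33 ± 0.25 and differed by 0.09 ± 0.38 under MEKi, or by 0.45 without MEKi replicate 2. Dusp26 differed by −1.43 ± 0.18 and −0.33 ± 0.90, with Vehicle arrays from −4.79 to −0.05, and the MEKi difference was 0.33 without Vehicle replicate 2 and −1.24 without Vehicle replicate 4.

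For some genes Vehicle and MEKi both stood near the Cre control level. Poc1b, a centriole protein, had means of 0.27 in Cre control, 1.09 in BRAFV600E, 0.30 in Vehicle and 0.23 in MEKi. Tex14, an intercellular bridge protein, had means of −3.57, −2.58, −3.62 and −3.64 in the same order. St3gal1, a sialyltransferase, had means of 0.75, −0.24, 0.63 and 0.66, and the unnamed locus E330017A01Rik of −3.96, −2.75, −4.01 and −3.93. Clps was alike, with medians of 4.46, 1.87, 4.26 and 4.75. In these genes Vehicle did not show the BRAFV600E shift, so their MEKi differences cannot show whether it was reversed. Slide and experiment cannot be told apart here. Lima1, a cytoskeletal protein, had means of 4.19, 5.00, 4.79 and 4.86, and Clmn, an actin-binding protein, of −1.24, −0.40, −0.03 and −0.17, with Vehicle near or beyond BRAFV600E.

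The other named genes covered varied functions, and all of them but Krt31, Ninl, Cdc42ep1 and Cntfr were chosen for description after their values were seen. Among the higher ones, Apom, an apolipoprotein of high-density lipoprotein, differed by 1.38 in BRAFV600E and 0.00 under MEKi, and Agbl4, a tubulin deglutamylase, by 1.07 and 0.02. Ube2cbp, a ubiquitin ligase, differed by 0.93 and −0.07, Immt, a scaffold of mitochondrial cristae, by 0.92 and −0.12, and Ccrn4l (current symbol Noct), a rhythmically expressed phosphatase of dinucleotide cofactors, by 0.87 and 0.00. Other Ccrn4l probes moved back under MEKi, by −0.39 and −0.27. Without Cre control replicate 6 the BRAFV600E differences were 0.97 for Apom, 0.71 for Ube2cbp and 0.63 for Immt, and Ube2cbp and Immt left the set. Among the lower ones, the hair keratin Krt31 differed by −1.30 and 0.15, Galnt15, which starts mucin-type glycosylation, by −1.02 and −0.00, and the GABA receptor subunit Gabra3 by −0.95 and −0.04. A second Galnt15 probe moved back under MEKi, by 0.40. Snord33, a small nucleolar RNA, differed by −0.91 and 0.00, Fggy, a carbohydrate kinase, by −0.88 and 0.12, Ninl, a centrosomal protein, by −0.82 and −0.21 (0.14 without Vehicle replicate 3), and Cdc42ep1, an effector of the GTPase Cdc42, by −0.82 and 0.02. Cntfr, a cytokine receptor chain, was −5.06, −5.05, −2.55 and −5.17 in Vehicle and −4.62, −4.97, −5.00 and −5.00 in MEKi, so that Vehicle replicate 3 alone set its MEKi difference of −0.44 ± 0.56, which was 0.20 without it. The same array was high for Colq, the collagen tail of acetylcholinesterase, which differed by −0.86 and −0.36, the latter 0.28 without that array. Of the 17 unnamed loci, 8 were higher, from 0.83 for 1700095K22Rik to 1.29 for ENSMUST00000117258, and 9 were lower, from −0.88 for E230029C05Rik to −1.51 for 4930469K13Rik. The last of these, a long noncoding RNA, had a MEKi difference of −0.57, which was 0.10 without Vehicle replicate 1.

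Membership depended on single arrays for most of the set. When each of the 20 arrays was left out in turn, between 64 and 79 of the 80 genes stayed in, and 16 stayed in every time. The named ones among the 16 were Shisa2, Fam64a, Pllp and Pik3c3 among the higher and Cyp3a41a, Cyp3a16, Cyp3a59, Ces1g, Gstm1, Cd209b, Irx4 and Tmprss5 among the lower. With Y-linked signal as a covariate, Cyp3a16 and Cyp3a59 no longer met the MEKi condition, at 0.19 and 0.33. The other named ones still did. Tmprss5, a serine protease, differed by −0.94 ± 0.12 and −0.19 ± 0.21. A second Tmprss5 probe gave −1.16 in BRAFV600E and 0.78 under MEKi, so its probes disagreed under MEKi. Without Cre control replicate 6, 14 genes left (10 higher and 4 lower), among them Aurka, Ska3, Cdca2, Sc5d, Tsta3 and Lima1. Without Vehicle replicate 2, 15 left (14 lower and 1 higher), among them the 7 pancreas and Reg family genes, and Pdk1 as the only higher gene. Other arrays weighed as much. The fewest of the 80, 64, stayed in without MEKi replicate 3, and 65 stayed in without MEKi replicate 2 or Vehicle replicate 3.

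**Figure D5:**
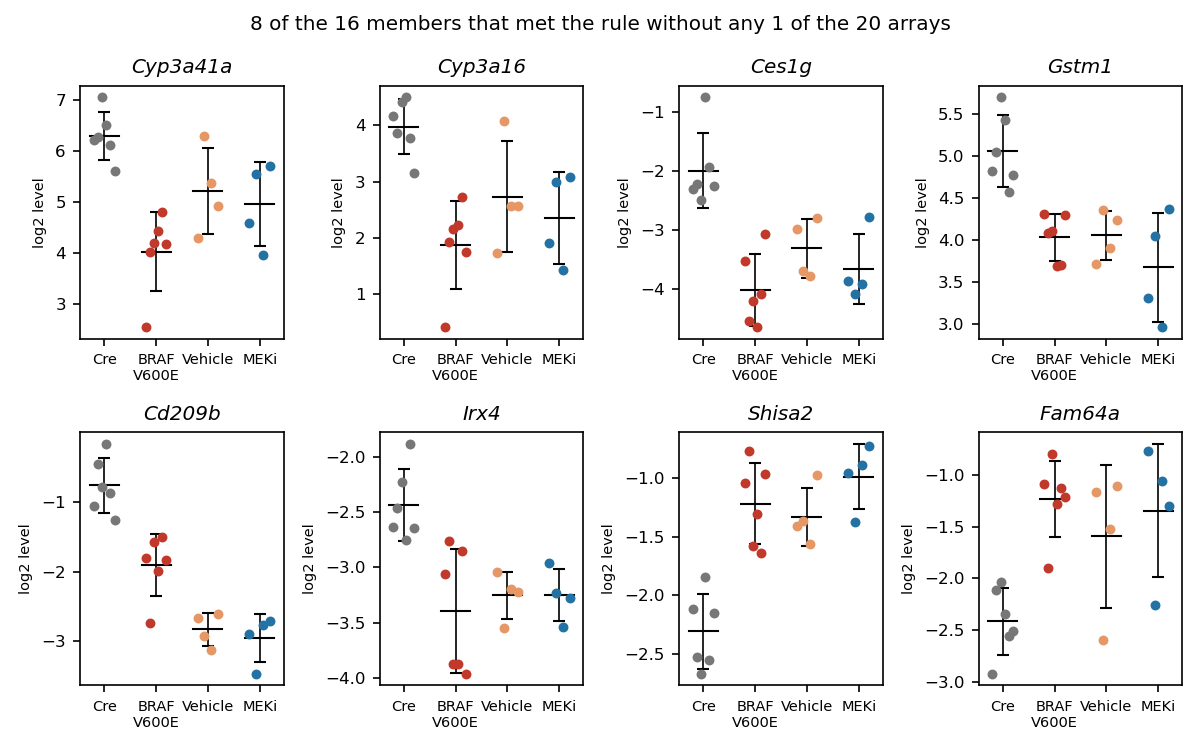
Levels (log2 signal relative to the 75th percentile of the array) of 8 of the 16 unreversed genes that met the selection without any single array, 1 point per array in each of the 4 groups with the mean and SD. In each panel Cre control and BRAFV600E are apart, and Vehicle and MEKi share most of their range.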

How the data were processed

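Total RNA of intestinal tissue was labelled with Cy3 and hybridised to SurePrint G3 Mouse arrays, and the authors deposited 1 scanner table per array from Agilent Feature Extraction (version 10.5.1.1 per the submitters' processing notes). Per the file headers, the values are processed signal intensity after background subtraction, with probe coordinates on mm9. The value table deposited for the series equalled these intensity values within 0.5% at 100% of spots and was not used further. Here, log2 of the intensity minus the 75th percentile of each array was computed from the deposited tables, control spots and outlier spots were left out, and the brightest probe per gene name was kept. Genes had to be well above background on all 6 arrays of BRAFV600E or Cre control and on at least 4 of the 8 MEKi and Vehicle arrays. limma 3.58.1 in R 4.3.3 (lmFit and eBayes, Benjamini-Hochberg over 23085 genes, adjusted p under 0.05, each experiment fitted alone, no covariates) gave the shares of all genes called and was tested on simulated data. Tables were built with Python 3.11.15 and pandas 2.3.3. Errors of differences are the moderated standard errors of limma, in which the variance of each gene over arrays is drawn toward a value shared by all genes. The number of arrays limits the precision.

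Groups were taken from the labels. The labels' treatment text describes a statin experiment that matches none of the groups and was not used. Genes were named by the size of their differences (the 10 largest and 10 smallest, the 6 largest same-sign MEKi differences in each direction), through gene lists with 3 or more members, and next to the thresholds. Those outside this rule, such as Gstm1, Gstm3, Cdca2, Cd209b, Wnt4, Pllp, Tsta3, Pdk1, Tex14, St3gal1, Tmprss5, the Dusp genes and the myeloid genes other than Clec4b1, Themis2 and Ncf4, were chosen after their values were seen. The genes and all lists were chosen with earlier results of these data known. Alternatives covered scaling, background correction, probe choice, filter, slide, Y-linked signal (arrays of both sexes occur in each group but MEKi), thresholds and the omission of each array.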

Additional observations from a re-analysis of the deposited data

Results flagged for a closer look

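In 252 groups of 4 or 6 arrays (63 named genes in 4 groups), 36 (14.3%) had an array whose distance to the nearest other, as a share of the group's range, was above Dixon's 95% critical value. About 1 in 20 groups would be flagged by chance had these values not chosen the genes. The selection used the same arrays and can favour genes with a single distant array, so the 14.3% cannot be read against that share. Genes that share an array are also not independent. Cre control replicate 6 was the low array in 9 of them, with ratios of 0.936 for Aurka, 0.920 for Tsta3, 0.909 for Apom, 0.778 for Pllp, 0.753 for Sc5d, 0.725 for Cdca2, 0.717 for Ube2cbp, 0.696 for Pik3c3 and 0.688 for Ska3. Vehicle replicate 2 was the high array in 7, with ratios of 0.948 for Pdia2, 0.916 for Reg3d, 0.907 for Rnase1, 0.876 for Rbpjl, 0.863 for Reg2, 0.859 for Clps and 0.844 for Pnliprp1.

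MEKi replicate 2 was low for Mefv (0.903), Igsf6 (0.873) and Wnt4 (0.845). Vehicle replicate 3 was high for Cntfr (0.955) and Colq (0.881) and low for Clmn (0.945). MEKi replicate 4 was high for Agbl4 (0.842) and Ces1g (0.829), MEKi replicate 1 high for Cntfr (0.913), and Vehicle replicate 4 high for Ska3 (0.832). Among Cre control arrays, replicate 1 was high for Poc1b (0.701) and Pdia2 (0.642), replicate 2 high for Clps (0.793), replicate 3 low for Agbl4 (0.685) and replicate 4 high for Ces1g (0.673). Among BRAFV600E arrays, replicate 1 was low for Cyp3a41a (0.652), replicate 2 low for Pdia2 (0.733) and high for Slc16a12 (0.776), and replicate 3 low for Chit1 (0.749) and Tbx2 (0.651).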

How the results depend on the processing

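The number of unreversed genes, 80 as reported, became 467 without scaling between arrays (18 of the 80 kept), 635 on slide 1 alone (68 kept), 150 with Y-linked signal as a covariate (62 kept), 43 at a difference of at least 1 and 44 when only the same sign under MEKi counted. Other settings gave 72 to 114, with 59 of the 80 kept under quantile normalization and 46 under normexp background correction. Genes called between BRAFV600E and Cre control, 3151 as reported, numbered 11909 without scaling, 4891 with normexp, 1975 without the detection filter, 1935 with slide as a block and 760 on slide 1 alone. Without scaling the median BRAFV600E difference of all genes moved to 0.79, and with normexp to −0.12. Genes called between MEKi and Vehicle, 366 as reported, numbered 78 without scaling, 153 without the detection filter and 17 with the Y-linked covariate. Leaving out each array gave 71 to 174 unreversed genes (174 without Cre control replicate 4, 126 without BRAFV600E replicate 5), 1900 to 3977 BRAFV600E calls (1900 without Cre control replicate 3, and 2020 without replicate 2) and 77 to 399 MEKi calls (85, 97 and 156 without MEKi replicates 1, 3 and 4, and 175, 114 and 77 without Vehicle replicates 1, 3 and 4). Of the BRAFV600E differences of the named genes under the alternatives, 1093 moved by less than the spread between replicates, 103 by more, and 1 reversed: Ncf4 was 0.0044 without scaling, where the median of all genes was 0.79. Of the MEKi differences, 816 moved by less than that spread and 3 by more. A move within the spread can still change the sign, as replicates differed widely for some genes (Vehicle SD 7.02 for Reg2). With the Y-linked covariate the MEKi differences of Reg2, Clps and Pdia2 were 1.59, 0.99 and 1.52, against −2.36, −0.16 and −0.16 as reported. Those of Cyp3a41a, Cyp3a16 and Cyp3a59 were 0.10, 0.19 and 0.33, against −0.26, −0.38 and −0.10. The cause of these changes was not tested. No paired analysis was possible because the labels give no replicate numbers shared between groups.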
